A study of Mus musculus with 3 samples.

Results

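The SOCS family consists of 8 genes, Socs1 to Socs7 and Cish, which were taken by gene symbol from the 22350 protein-coding genes that GENCODE M1 places on chromosomes 1 to 19 and X of the mouse assembly mm9. SOCS proteins (suppressors of cytokine signalling) limit cytokine responses. A cytokine receptor activates JAK kinases, these phosphorylate STAT factors, and the STATs switch on target genes that include SOCS genes themselves. Each SOCS protein has an SH2 domain, which binds phosphorylated tyrosines of receptors or kinases, and a SOCS box, which recruits a ubiquitin ligase made of elongins B and C, a cullin and a RING protein. In macrophages, Socs1 and Socs3 are best known as brakes on interferon and interleukin-6 signalling.

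Pol_II phosphorylated at Ser5 of its C-terminal repeats was mapped by ChIP-Seq. The study describes this mark as set when transcription initiates and kept along transcribed genes until their 3′ end. The macrophages were grown from bone marrow of female Fvb mice (Fvb/Hsd in the study's methods) in medium conditioned by L929 cells, and stimulations were done on day 7. One Ser5 library came from untreated cells and 1 from cells given LPS for 2 h at 10 ng/ml. LPS (lipopolysaccharide) is a bacterial envelope molecule sensed by a Toll-like receptor. The third library was input DNA from untreated cells, and no input of LPS-treated cells was used here. The labels name LPS alone for the Ser5 library, whereas other Pol_II libraries of the study were made from cells given LPS with γIFN, a ligand of the JAK-STAT pathway.

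Each library held 6249819 to 7616771 tags on the chromosomes used. Values are tags scaled to the total of their library (TPM), counted by the 5′ end of each tag and divided by region length in kb. There was 1 library per condition, so no difference was tested. The 95% intervals given cover counting error only. Outside the Ser5 peaks lay 49.9% and 46.3% of the untreated and LPS tags and 95.5% of the input, so scaling to those tags would raise Ser5 against input 1.91 and 2.06 times. A level close to input, given below by library totals, depends on this choice. The files hold tags of 45 bases for untreated Ser5, 30 for LPS and 36 for input, whereas the methods of the study give the first 2 lengths the other way round. Of 8 genes known to respond to LPS, 8 were at least 2 times higher over the gene body in the library labelled LPS, with a median ratio of 38.1. All 8 macrophage markers (such as Csf1r, Emr1 and Cd14) had a Ser5 peak at the TSS in both libraries. Their TSS tags summed to 616 and 600 TPM, not divided by region length. Over the gene body 2 of the 8 were at least 2 times higher after LPS (Cd14, 3.18, and Emr1, 3.01) and 4 were 2 times lower (among them Itgam, 0.229, and Cd68, 0.263). None of the 16 markers of T cells, B cells, fibroblasts and epithelium had one, and of 4 neutrophil markers 1 had one in untreated cells and 0 after LPS. The summed TSS tags of each of these 5 marker groups were at or below input by library totals.

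Sequence is shown for the matches to STAT or interferon response elements close to the TSS of Socs1, Socs2 and Socs3 and for the paired matches in Cish, since these are the elements through which the pathway is known to reach SOCS genes. All coordinates are mm9 and positions are counted from the TSS of the transcript used below. In Socs1 the 250 bases before the TSS (chr16:10785630-10785879, minus strand) hold 2 copies of GAAA with 2 bases between them at -83 and again at -77, a pair of overlapping matches to the core of an interferon-stimulated response element, shown in capitals.
Socs1 promoter: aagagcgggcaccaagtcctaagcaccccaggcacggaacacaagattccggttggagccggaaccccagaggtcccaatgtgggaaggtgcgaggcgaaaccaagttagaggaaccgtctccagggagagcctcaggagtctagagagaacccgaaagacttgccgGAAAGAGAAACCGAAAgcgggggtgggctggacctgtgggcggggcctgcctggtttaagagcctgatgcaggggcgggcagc
In Socs3 the letters TTCNNNGAA, the core of a STAT site, occur at -334 and at -61. The 250 bases before the start that RefSeq gives (chr11:117830681-117830930, minus strand) contain the first, and a stretch of 30 bases (chr11:117830542-117830571) contains the second, with the matches in capitals.
Socs3 upstream: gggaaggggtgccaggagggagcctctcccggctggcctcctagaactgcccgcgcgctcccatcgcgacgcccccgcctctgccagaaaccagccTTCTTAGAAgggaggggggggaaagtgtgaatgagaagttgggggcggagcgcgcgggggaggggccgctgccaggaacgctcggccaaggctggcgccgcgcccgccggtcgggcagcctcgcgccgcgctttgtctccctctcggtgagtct
Socs3 site: ggccgggcagTTCCAGGAAtcggggggcgg
Cish and Socs2 each hold such letters in pairs. The Cish pairs lie at 633 and 644 (chr9:107198985-107199014, plus strand) and at 738 and 755 (chr9:107199093-107199122) after the TSS used, next to the starts of other annotated Cish transcripts. The Socs2 pair lies at -66 and -55 (chr10:94879533-94879562, minus strand).
Cish first pair: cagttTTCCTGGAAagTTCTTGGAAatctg
Cish second pair: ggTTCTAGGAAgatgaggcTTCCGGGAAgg
Socs2 pair: gcggaTTCCTGGAAagTTCCTGGAAagcgg

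Both strands were searched, and every match is a description of letters, not of a bound site. In the 300 bases around the TSS (250 before and 50 from the TSS on), TTCNNNGAA was found in 7.79% of all 22350 promoters and in Socs2 and Socs3 among the members. The stricter TTCCNGGAA, which is contained in the first motif, was found in 1.15% of promoters and again in Socs2 and Socs3. The spaced GAAA repeat occurred in 3.79% of promoters and in Socs1 alone of the 8. GGGNNTTCC, part of an NF-kB site, occurred in 6.02% of promoters and TATAAA in 13.4%, and neither was present in a member. In the wider window of 1 kb on each side, GGGNNTTCC was in 27.7% of genes and in Socs5 (at 704) and Cish (at -305). TATAAA was there in 59.5% of genes and in Socs2 and Socs6. Within 1 kb on each side of the TSS, TTCNNNGAA was in 10053 genes and in 6 members (with single matches, not printed, at -453 in Socs1, -500 in Cish, 932 in Socs4, and -831 and 696 in Socs7), and TTCCNGGAA in 6.20% of genes and in Socs2, Socs3 and Cish. The base composition of Cish differed from that of the other members in the 300 bases around the TSS used. The Cish start that RefSeq gives lies 633 bases after that TSS, so these 300 bases do not include it. In them the GC content of Cish was 46.7% against a median of 55.7% over all promoters. Its observed-over-expected CpG was 0.246 against 0.549. The other 7 had 63.3% to 81.0% GC and CpG of 0.614 to 0.992. Within 1 kb on each side, Cish (51.6%), Socs6 (51.7%) and Socs4 (52.3%) were alike in GC content. Their CpG in that window still differed, at 0.445, 0.676 and 0.836. RefSeq promoters (assembly GRCm38.p6) were matched by symbol for 4 members, Cish, Socs1, Socs3 and Socs4, and each sequence occurred exactly once in mm9. The sequences printed above were read from mm9.

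For Socs3, Socs2 and Socs6 the 5′ end of the gene record is not that of the transcript numbered 001, and for Socs6 it lies 33159 bp upstream, where the TSS window (1 kb on each side) held 0 tags in untreated cells, 1 after LPS and 13 in input. The transcript numbered 001, or for Socs1 and Socs5 the full-length coding transcript, was therefore used to describe TSS levels, and counts by the gene record are given beside them. This choice was made after the tags were seen. The gene records hold 1 to 15 transcripts per gene. Socs1 (transcript of 1729 bp) and Socs3 (3108 bp) are compact genes of 2 exons, Cish (5962 bp) and Socs2 (5368 bp) have 3 exons, and Socs4, Socs5, Socs6 and Socs7 span 19168 to 35992 bp.

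LPS was accompanied by at least 2 times more Ser5 over the gene bodies of 4 of 8 members, Socs3, Cish, Socs1 and Socs7. All 8 had at least 10 tags over both Ser5 libraries. Among all 17386 coding genes with that many tags, 5.83% were as much higher. None of the 8 was 2 times lower, against 11.3% of those genes. The median ratio was 1.97 over the members and 0.874 over all genes tested. At the TSS 3 of 7 members with enough tags were at least 2 times higher (Socs1, Socs3 and Cish), where 5.58% of 12535 genes were, and 0 were 2 times lower, where 14.1% were. With transcript 001 all 8 had enough tags at the TSS and again 3 were higher, beside 5.72% of genes. The ratios are of bulk material, in which more cells carrying Pol_II on a gene and more Pol_II per cell cannot be told apart.

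A Ser5 peak overlapped the TSS window of 5 members in untreated cells (Socs1, Socs3, Socs4, Socs5 and Socs7) and of 6 after LPS, when Cish was added. Peaks at the TSS were present at 48% of coding genes in untreated cells and at 45.9% after LPS. With transcript 001, Socs6 had a peak in both libraries, which made 6 and 7 members. Socs2 had no peak within 20 kb in either library.

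**Figure D1:**
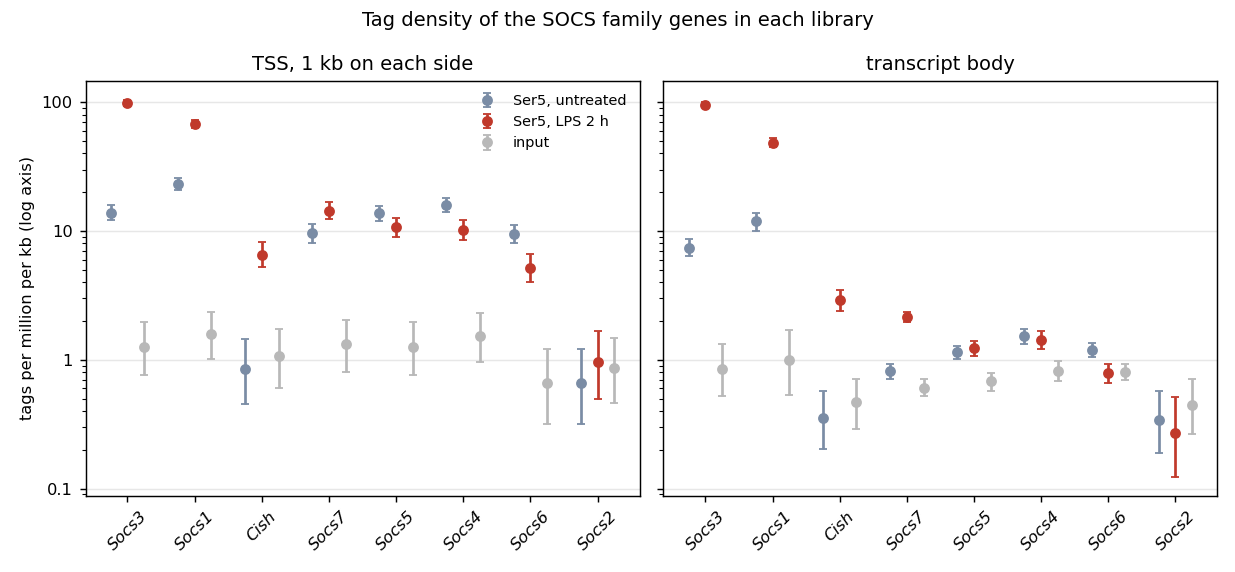
Tag density (TPM per kb, log axis) of each member in untreated Ser5, LPS Ser5 and input, at the TSS of transcript 001 with 1 kb on each side and over the transcript, with 95% Poisson intervals of counting error for the single library of each kind. Socs3 and Socs1 lie highest after LPS, at 98.5 and 68.0 TPM per kb at the TSS, and the intervals of Socs2 overlap those of input in both panels.

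In untreated cells the TSS density was highest at Socs1, at 23.2 TPM per kb. Socs4 (15.9), Socs3 (13.9) and Socs5 (13.7) came next, and neighbours in this order differed by less than the counting error. Socs7 (9.58) and Socs6 (9.51) were lower than Socs5 and alike within counting error. Cish (0.853) and Socs2 (0.656) were last, beside 1.06 and 0.862 TPM per kb in input. After LPS the order was led by Socs3 (98.5), then Socs1 (68.0), Socs7 (14.4), Socs5 (10.7) and Socs4 (10.2), Cish (6.56) and Socs6 (5.20), with Socs2 (0.960) last. In that order only Socs5 and Socs4, and Cish and Socs6, were neighbours whose ratio had an interval including 1.

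Socs3, whose protein binds the interleukin-6 receptor subunit gp130 and the JAKs attached to it, had the highest ratio of LPS to untreated over the gene body among the members, with an interval that overlaps that of Cish. Its gene record (chr11:117827393-117831361, minus strand) held 244 tags in untreated cells, 2129 after LPS and 34 in input, or 8.07, 85.8 and 1.14 TPM per kb. The ratio of LPS to untreated was 10.6 (95% interval 9.31 to 12.2), and 42 of the 17386 coding genes had a higher one. At the TSS of the gene record it was 4.96 (4.21 to 5.86), from 182 and 740 tags. Because that 5′ end lies 861 bp upstream of Socs3-001, the window at Socs3-001 caught more of the signal, with 212, 1232 and 19 tags and a ratio of 7.08 (6.12 to 8.23).

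The added Ser5 at Socs3 was not spread evenly. In the first 500 bp after the TSS there were 121 tags in untreated cells and 679 after LPS. In the rest of the transcript beyond the first 1 kb there were 37 and 914, a ratio of 30.1 (21.7 to 43.0), with 16 in input. The density at the TSS was thus 6.03 times that of the rest of the transcript in untreated cells (4.24 to 8.80) and 1.42 times after LPS (1.30 to 1.55). Past the 3′ end, a second maximum lay at 3 to 4 kb from the TSS, where the 500-bp bins held 14 and 14 tags in untreated cells and 373 and 358 after LPS. The 5 kb past the 3′ end held 186, 1330 and 54 tags, a ratio of 8.71 (7.47 to 10.2). No 30-base sequence of the Socs3 transcript or TSS window occurs elsewhere in the genome.

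Peaks at Socs3 merged after LPS. Untreated cells had a peak of 723 bp over the TSS (117830094-117830817) and 3 more within 6 kb downstream of it, which left 18.2% of the gene record covered. LPS gave 1 peak of 7197 bp (117824404-117831601) that covered 100.0% of it. The number of peaks within 20 kb that lay outside coding genes was 5 in untreated cells and 11 after LPS. The longest upstream one (117840100-117841331, 9.6 to 10.8 kb before the TSS) held 10 tags in untreated cells, 138 after LPS and 12 in input. The next (117839203-117840025) held 4, 98 and 13. These 2 were called as peaks from the LPS library only, so their ratios of 16.8 (8.87 to 35.9) and 29.9 (11.3 to 112) are descriptions of regions chosen for high LPS values. From 1 to 10 kb upstream, a stretch not chosen by peaks, the tags were 50, 290 and 92 (ratio 7.07, 5.22 to 9.74).

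Socs1 encodes the inhibitor that binds JAKs and the interferon receptors. It lies at chr16:10783901-10785629 on the minus strand, and its gene record and transcript are the same. The body held 156 tags in untreated cells, 525 after LPS and 13 in input, or 11.8, 48.6 and 0.998 TPM per kb, a ratio of LPS to untreated of 4.10 (3.42 to 4.94). Of the coding genes, 230 had a higher ratio. The TSS window held 353, 850 and 24 tags (ratio 2.93, 2.59 to 3.33), so that Socs1 began from the highest TSS level of the family and had a smaller ratio than Socs3 or Cish.

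As at Socs3, Ser5 after LPS extended along and past Socs1. Beyond the first 1 kb the transcript held 10, 77 and 4 tags (ratio 9.38, 4.84 to 20.3), and the TSS density over that of this rest was 12.8 in untreated cells and 4.02 after LPS. In the 5 kb past the 3′ end there were 55, 453 and 16 tags, a ratio of 10.0 (7.58 to 13.5). LPS gave a separate peak there of 3385 bp (10780470-10783855), while untreated cells had none. Peaks covered 40.5% of the gene in untreated cells and 98.3% after LPS. No 30-base sequence of the gene or its TSS window is repeated elsewhere.

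Cish encodes CIS, which binds receptors that signal through STAT5. Its gene record is chr9:107198357-107205115 on the plus strand. By library totals it was within counting error of input before LPS and above it afterwards. The body held 16 tags in untreated cells, 116 after LPS and 22 in input (0.311, 2.75 and 0.432 TPM per kb), a ratio of LPS to untreated of 8.84 (5.22 to 16.0). The ratio of LPS Ser5 to input was 6.36 (4.0 to 10.5). Higher ratios of LPS to untreated were found in 52 coding genes. At the TSS there were 13, 82 and 16 tags (ratio 7.69, 4.26 to 15). Its rank by ratio was therefore close to that of Socs3, while its density over the body after LPS was far lower.

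The LPS library had a peak of 1112 bp at Cish (107198239-107199351) and the untreated library had none in the gene. Both STAT-type pairs printed above lie inside that peak, as do the starts of 5 of the 6 annotated transcripts. The 2 bins of 500 bp after the TSS held 31 and 35 tags after LPS and 4 and 6 in untreated cells. The non-coding genes Gm17040 and Gm17041 overlap Cish on the other strand, and ChIP tags carry no strand of transcription, so signal of the 3 genes cannot be told apart. In the 1 kb before the TSS 23.5% of 30-base sequences are repeated in the genome and 19.2% of 45-base sequences. In the 1 kb after it none are, and there the tags were 10, 66 and 9 (ratio 8.04, 4.11 to 17.5).

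**Figure D2:**
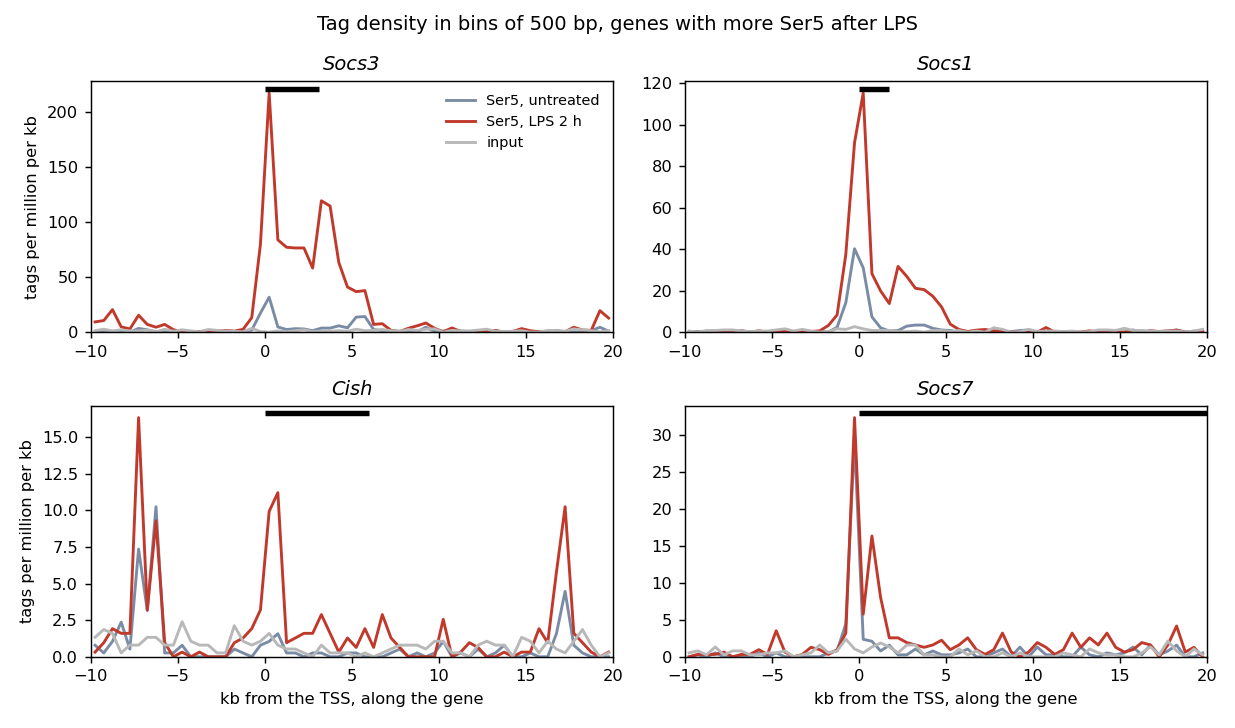
Tag density (TPM per kb, linear axes from 0) in bins of 500 bp from 10 kb before to 20 kb after the TSS of Socs3, Socs1, Cish and Socs7, read along each gene, with untreated Ser5, LPS Ser5 and input as lines and the transcript as a black bar. Socs3 shows 1 maximum at the TSS and another past its 3′ end after LPS, and at Socs7 the maximum before the TSS is alike in both Ser5 libraries, with 112 and 101 tags in its bin. The highest bins of the Cish panel start at -6500 bp in untreated cells (39 tags) and -7500 bp after LPS (51 tags). Peaks in both bins overlap the neighbouring gene Mapkapk3.

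Socs7, whose protein binds the adaptor Nck among others, differed between libraries in its transcribed part. It lies at chr11:97223865-97259856 on the plus strand. Over the body there were 224 tags in untreated cells, 481 after LPS and 165 in input, a ratio of LPS to untreated of 2.62 (2.23 to 3.08), and 581 coding genes had a higher ratio. The 1 kb before the TSS held 129, 111 and 13 tags (ratio 1.05, 0.806 to 1.36). The first 1 kb after it held 17, 69 and 7 (ratio 4.95, 2.88 to 8.97). The intervals of these neighbouring stretches do not overlap, and the TSS window that joins them had a ratio of 1.50 (1.20 to 1.88).

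Along the rest of Socs7, cut into 4 equal stretches, the ratio was 3.30, 2.77, 2.29 and 1.98 from the first to the last, with intervals that overlap between all neighbours. The last of these had the most tags in both Ser5 libraries, 95 and 154, against 44 in input. The peaks in the gene numbered 2 in untreated cells and 7 after LPS, and covered 1.24% and 10.6% of it. Repeated 30-base sequences make up 9.84% of the gene and repeated 45-base sequences 6.18%, and the shorter tags are those of the library with more signal.

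Socs4 and Socs5 encode SOCS proteins known for acting on the epidermal growth factor receptor. Both had Ser5 peaks at the TSS in both libraries and bodies near equality. Socs4 (chr14:47896606-47915773, plus strand) held 222, 171 and 119 body tags in untreated, LPS and input (ratio of LPS to untreated 0.939, 0.764 to 1.15). Socs5 (chr17:87507019-87536923, plus strand) held 260, 229 and 153 (ratio 1.07, 0.895 to 1.29). Densities over both bodies were 1.14 to 1.52 TPM per kb in the Ser5 libraries and 0.679 to 0.824 in input.

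At the TSS of Socs4 there were 243, 127 and 23 tags, a ratio of 0.637 (0.510 to 0.793) where the median of all genes tested was 0.831. Its TSS lies 73 bp from the gene Wdhd1, which runs the other way, and the window covers both starts. The 1 kb on the Wdhd1 side held 133 tags in untreated cells and 50 after LPS (ratio 0.458, 0.324 to 0.639), and the first 1 kb of Socs4 held 110 and 77 (ratio 0.853, 0.629 to 1.15). Beyond that 1 kb, Socs4 had 112, 94 and 109 tags, equal to input within counting error by library totals and 1.94 and 2.14 times input when scaled to tags outside the peaks.

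At Socs5 the window held 209, 134 and 19 tags (ratio 0.781, 0.624 to 0.975). Most of the signal lay before the annotated start. From 1000 to 500 bp upstream there were 119 tags in untreated cells and 50 after LPS, and in the next 500 bp 46 and 53. The ratio accordingly turned to 1.22 (0.877 to 1.69) in a window of 500 bp on each side, so the direction at this TSS depends on the window.

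Socs6, whose protein is known to bind the stem cell factor receptor Kit, was lower after LPS at the TSS and along the transcript, though short of 2 times. Socs6-001 (chr18:89034561-89063714, minus strand) held 266 tags in untreated cells, 143 after LPS and 177 in input, a ratio of LPS to untreated of 0.655 (0.531 to 0.806). The TSS window of the transcript held 145, 65 and 10 tags (ratio 0.546, 0.401 to 0.737), and 10383 of 12589 genes had a higher ratio there. Upstream of the TSS the 1 kb held 63, 15 and 3 tags (ratio 0.290, 0.153 to 0.516), and the first 1 kb after it 82, 50 and 7 (0.743, 0.512 to 1.07). Beyond that there were 184, 93 and 170 tags, which put untreated Ser5 at 1.07 times input by library totals and at 2.05 times when scaled to tags outside the peaks. The whole gene record of 262258 bp, which extends past both ends of Socs6-001, had a ratio of 0.693 (0.601 to 0.797).

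Socs2, the inhibitor of growth hormone receptor signalling, had few Ser5 tags in both libraries. The gene record (chr10:94847996-94879814, minus strand) held 37, 45 and 147 tags, and the ratio of LPS to untreated of 1.48 (0.938 to 2.36) had an interval that includes 1. Over Socs2-001 there were 14, 9 and 18 tags, which gave a ratio of 0.783 (0.299 to 1.94), so its direction was not settled at this depth. Its TSS window held 10, 12 and 13 tags, and none of the windows at the 13 annotated starts of the gene held more than 12 tags in a Ser5 library. Socs2 thus combined 2 STAT-type matches just before its TSS and a GC content of 72.3% with Ser5 at its TSS that was within counting error of input under both scalings. In Socs2-001, 17.0% of 30-base and 10.9% of 45-base sequences are repeated in the genome, but in its TSS window only 0.950% and 0.200% are.

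**Figure D3:**
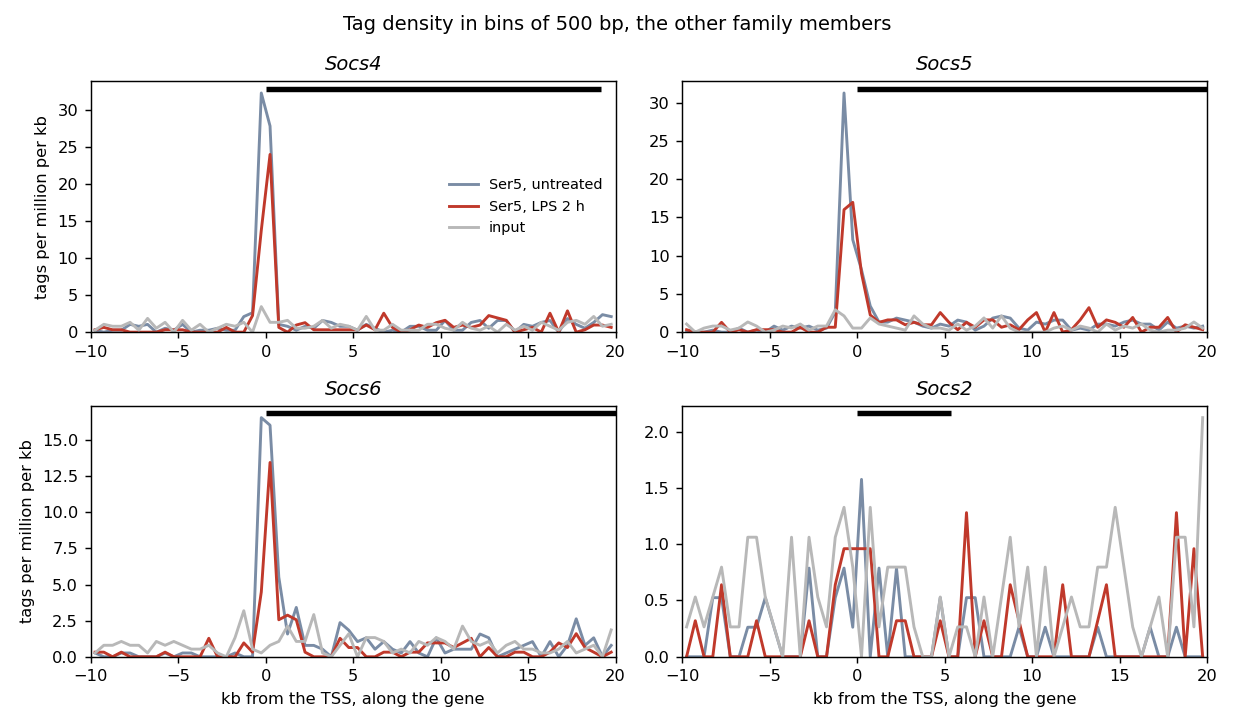
Tag density (TPM per kb, linear axes from 0, each panel with its own scale) in bins of 500 bp around the TSS of Socs4, Socs5, Socs6 and Socs2, read along each gene, with untreated Ser5, LPS Ser5 and input as lines and the transcript as a black bar. Socs4, Socs5 and Socs6 have 1 maximum at or before the TSS in both Ser5 libraries, while the lines of Socs2 cross those of input throughout.

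The density at the TSS over that of the rest of the transcript was lower after LPS in 7 of 8 members and in 55.2% of 11837 coding genes with at least 10 tags in each of these regions. It was 12.3 in untreated cells and 7.64 after LPS at Socs7, 19.7 and 12.3 at Socs4, 14.0 and 9.78 at Socs5, 11.1 and 9.83 at Socs6, and 5.37 and 4.84 at Cish. The intervals of the 2 libraries did not overlap at Socs1, Socs3 and Socs7, and overlapped at Socs4, Socs5, Socs6 and Cish. At Socs2 the value rested on 8 and 3 tags in the rest of the transcript.

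**Figure D4:**
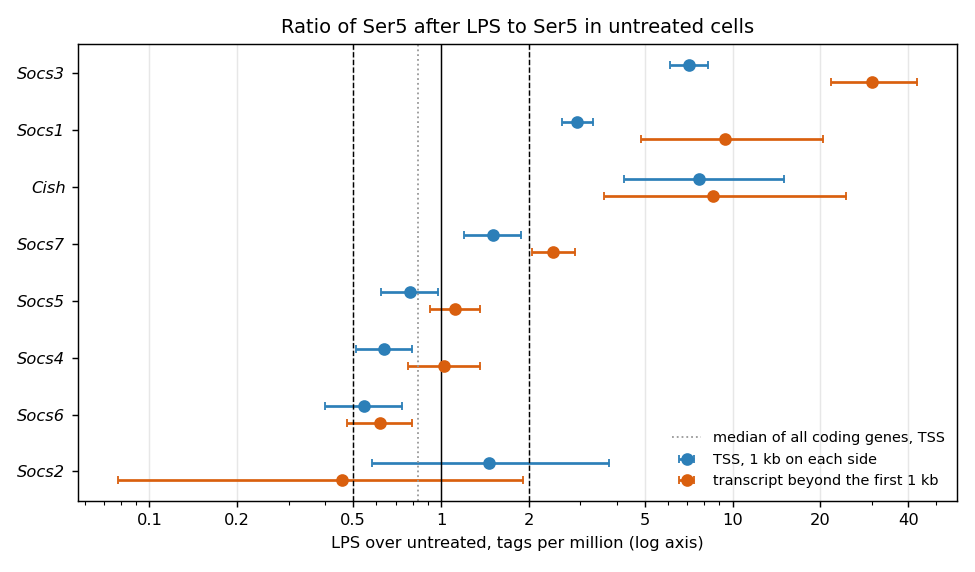
Ratio of LPS to untreated Ser5 (log axis) with 95% intervals of counting error, for the TSS window and for the transcript beyond its first 1 kb, per member and with 1 library per condition. Dashed lines mark 2 times higher and lower and the dotted line the median of all coding genes at the TSS, 0.831. At Socs3 and Socs1 the rest of the transcript has the larger ratio, 30.1 and 9.38 against 7.08 and 2.93.

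The other genes of the pathway were followed in a list of 66 ligands, receptors, kinases, STATs, inhibitors, ligase partners and substrates. Of 65 with enough tags over the gene body, LPS left 14 higher by at least 2 times and 6 lower, beside the same 5.83% and 11.3% of all coding genes tested, with a median ratio of 1.03. Ligands accounted for 8 of the 14. Of these, Csf2 rested on 4 tags untreated, 11 with LPS and 9 in input. Its ratio of 3.35 had an interval that includes 1 (0.993 to 14.4). The highest ratios among genes of the list with at least 50 tags were those of Il12b, with 11 tags before and 728 after treatment (ratio 80.7, 44.8 to 162), Il6, with 20 and 537 (32.7, 21.0 to 54.0), and Il27, with 109 and 666 (7.45, 6.07 to 9.20). These genes encode cytokines, or subunits of cytokines, whose receptors signal through STATs.

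No receptor gene of 21 was 2 times higher and 3 were 2 times lower, where 11.3% of all coding genes were lower. Il6ra, which encodes the interleukin-6 binding chain, held 551 tags untreated and 159 with LPS, and had the lowest ratio of the list among genes with at least 50 tags, 0.352 (0.293 to 0.420). Il6st, the gp130 subunit that Socs3 binds, had 300 and 112 tags (ratio 0.455, 0.363 to 0.567). Its body density was 1.24 TPM per kb untreated, 0.563 with LPS and 0.604 in input. At its TSS these densities were 0.591, 0.960 and 0.597, close to input and not lower with LPS. Epor was the third, with 16 and 2 tags beside 20 in input. Its body densities of 0.449 and 0.0684 TPM per kb did not exceed the 0.568 of input. Il6st and Epor, like the genes of the next 2 sentences, were named after their values were seen. Of 4 JAK kinases Jak2 (ratio 5.16) and Tyk2 (2.49) were higher, and among the STATs Stat2 (2.19) was higher and Stat6 (0.455) was lower. Among 12 inhibitors outside the SOCS family, Usp18 (3.80) and Ptprc (2.56) were higher.

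Sh2b3, an adaptor that restrains JAK2, held 1531 tags untreated and 546 with LPS (ratio 0.435, 0.393 to 0.480). All 6 genes of the ligase that the SOCS box recruits (such as Tceb1, Tceb2 and Cul5) were within 2 times over the gene body. Their median ratio was 1.04. At the TSS 1 of the 6, Cul5, counted as 2 times lower (log2 ratio -1.17), where 14.1% of coding genes tested did. Its TSS level was close to input, with 0.722 TPM per kb untreated, 0.320 with LPS and 0.531 in input. Of 4 substrates outside JAK-STAT signalling, Irs2, which relays insulin signals, was 2 times lower, with 183 and 68 tags (ratio 0.453, 0.338 to 0.601).

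**Figure D5:**
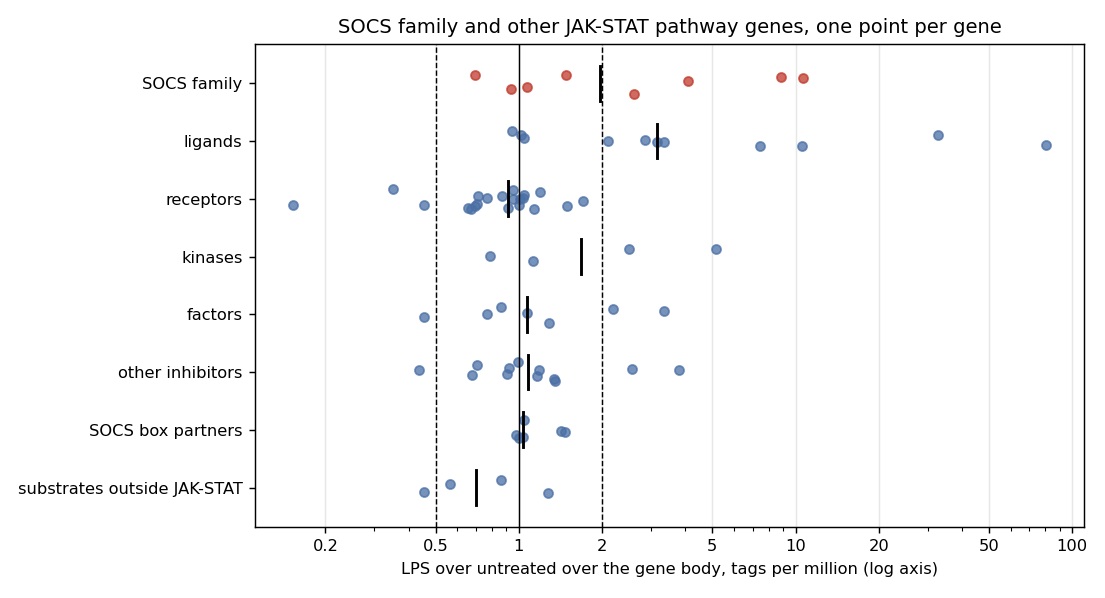
Ratio of LPS to untreated Ser5 over the gene body (log axis) for the 8 SOCS family genes and the JAK-STAT list by role, 1 point per gene with at least 10 tags, from 1 library per condition. Black bars are medians and dashed lines mark 2 times higher and lower, and ligands have the highest median, 3.17, against 1.97 for the SOCS family and 0.910 for receptors.

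The genes with the most similar values to Socs1, Socs3 and Cish were found by distance over 4 values. These were the log2 densities of gene body and TSS window in both Ser5 libraries, by the gene record and not transcript 001. For Socs3 the TSS window of the gene record had 11.9 and 59.2 TPM per kb. Nearest to Socs1 were Slc2a6 (distance 0.463), Apobr (0.496) and Irf1 (0.615). Irf1 had 8.24 and 41.6 TPM per kb over its body and 27.3 and 71.4 at its TSS. Nearest to Socs3 were Icam4 (0.656), Clec4e (0.767) and Ch25h (1.11), and Clec4e had 9.96 and 82.6 TPM per kb over the body. Nearest to Cish were Expi (0.722), Tnfsf15 (0.834) and Enpp4 (0.978). These likenesses rest on 2 libraries and 2 regions per gene.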

How the data were processed

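Ser5 Pol_II ChIP-Seq and input DNA were analysed from the tag positions and peak lists that the authors deposited. The authors aligned reads to mm9 with Bowtie and called peaks per Ser5 library against input with MACS (versions not given in the sources used here). The deposited tag files hold positions and strands, and the deposited peak score is minus 10*log10 of the MACS p-value. Tags on chromosomes 1 to 19 and X were counted by 5′ end, with repeats kept, and scaled to the total of the library (TPM). Exact Poisson and exact conditional 95% intervals were computed with scipy 1.17.1, and figures with matplotlib 3.10.9. A difference was counted from 2 times on, given 10 tags or more summed over the Ser5 pair, and 0 tags set to 0.5. Genes came from GENCODE M1, on the assembly of the files. All 8 members were named, with the 3 highest and 3 lowest of the pathway list (at least 50 tags) and the 3 genes nearest to Socs1, Socs3 and Cish (0.1 added before log2). The members and lists were chosen with earlier results of these data known. Alternatives covered repeated tags, tags moved 75 bp, scaling to tags outside peaks, windows, transcripts and peak thresholds. Counting and intervals were tested on simulated data, where the intervals held the true value in 95.2% to 98.2% of 2000 cases each. Nothing in the labels says that separate cultures were pooled or repeated. The values of 1 gene of the pathway list are not reported here.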

Additional observations from a re-analysis of the deposited data

How the results depend on the processing

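With 1 library per condition, counting error is the only error known here, and depth limits Socs2 most. The counts of members 2 times higher or lower and of members with a peak stayed within 1.5 times in all 36 alternatives. Of 81 ratios of LPS to untreated, 70 moved by less than their counting error and 10 by more, and Socs5 at the TSS turned from 0.781 to 1.22 in a window of 500 bp on each side. Socs2 over the body went from 1.48 to 0.783 with transcript 001, both with intervals that include 1. The cause was not tested. In that window Socs2 counted as higher (3.66, 0.912 to 21.0), Socs7 fell to 1.20 and Socs3 had 7.62. With 1 tag per position and strand Socs3 had 3.74 at the TSS. Of 93 ratios of Ser5 to input, 25 moved, all under scaling to tags outside the peaks, which raised Ser5 against input 1.91 times in untreated cells and 2.06 times after LPS. It shifted the median ratio of LPS to untreated over all genes from -0.19 to -0.09 (log2, gene body). Under it Socs2 had 0.476 and 0.760 of input over the body. Without a minimum number of tags, Socs6 counted as higher at the TSS of its gene record from 0 tags and 1 tag. Transcript 001 was added as an alternative after the data were seen. No paired analysis was possible because each condition has 1 library.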
